A study of Mus musculus with 6 samples.

Results

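Nuclear receptors are transcription factors, most of them switched by small fat-soluble ligands, and they were examined here as 1 gene family in mouse liver. The family was taken from a list of 47 gene symbols, and a member was measured where a platform annotation gave a probe set to that gene alone. By this rule 45 members were measured, out of 22180 genes in all; Nr1h2 and Nr2e3 were not analysed here. A gene with several probe sets was read at the one with the highest mean over the arrays.

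The study compared livers of male C57BL/6J mice in 2 groups of 3, with 1 Affymetrix whole-transcript array per mouse. Con mice were Slug f/f littermates, with the Slug gene (symbol Snai2, a zinc finger repressor of the Snail family) flanked by recombination sites. HKO mice came from crossing Slug f/f mice with albumin-CreERT2 drivers, in which a tamoxifen-inducible Cre recombinase is made in hepatocytes, so that by design other liver cells keep the gene. Feeding was the same in both groups: from the age of 8 weeks, all mice ate a diet in which fat supplied 60% of the calories, for 11 weeks. Not given in the sources used here are whether Con mice carried Cre, whether and when tamoxifen was given, and the hour of tissue collection.

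Most nuclear receptors share a zinc-finger DNA-binding domain and a ligand-binding domain, and many bind DNA in pairs with a retinoid X receptor as partner. In liver they act as sensors of fatty acids (PPARs), oxysterols (LXR), bile acids (FXR) and foreign chemicals (PXR and CAR), and others read out thyroid hormone, retinoic acid, glucocorticoids or the time of day. Hormone binding, partner choice and coregulators set their activity, so a receptor's mRNA level is only part of its state, and mRNA is all that the arrays measured.

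Snai2, the targeted gene, stood at log2 array values of 7.74, 7.69 and 7.39 in Con and 4.62, 5.23 and 5.69 in HKO. The groups did not overlap, and the log2 change was -2.43 ± 0.25 (SE; limma, adjusted p = 0.0145). The adjusted p was 0.0758 without Con1, 0.0927 without Con2 and 0.0621 without HKO2. The exact two-sided permutation test over 3 against 3 arrays cannot go below 0.1, which it reached for this gene. In whole liver, fewer cells of a type and less RNA per cell cannot be told apart. The hepatocyte list (7 of 8 measured) had a median change of 0.01 with 0 members past the threshold. At an unadjusted p under 0.05, 1 was higher and 0 lower (5.31% and 6.56% of all genes). The list's summed level spanned 14.1 to 14.2 in Con and 14.1 to 14.3 in HKO.

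DNA sequences were read at the starts of the receptors. RefSeq's promoter table (GRCm38.p6) held a window for 43 of the 47 listed receptors, 64 windows in all, each the 250 bases before a transcription start; a gene can have several windows, and some overlap. The 6 windows below were picked by hand, after the values and motif matches were seen, from receptors that the text describes at length, to show both elements that were searched for or their absence; they follow no rank, and other receptors with p-values as low (Pgr, Rara and Thrb) also have windows with a match. Capitals mark CAGGTG or its other strand CACCTG, the E-box that Snail family proteins bind, and AGGTCA or its other strand TGACCT, the half-site that nuclear receptors bind. In the windows shown, no match of one motif overlapped a match of the other. The windows are Nr0b2 at chr4:133553126-133553375 (plus strand), Nr1i3 at chr1:171213720-171213969 (plus), Rxra at chr2:27709042-27709291 (plus; the downstream one of its windows), Nr4a2 at chr2:57124004-57124253 (minus), Nr5a2 at chr1:136953631-136953880 (minus; 1 of its 2 windows) and Pparg at chr6:115362099-115362348 (plus; 1 of its 3 windows), all written 5′ to 3′ on the strand of the gene.
Nr0b2: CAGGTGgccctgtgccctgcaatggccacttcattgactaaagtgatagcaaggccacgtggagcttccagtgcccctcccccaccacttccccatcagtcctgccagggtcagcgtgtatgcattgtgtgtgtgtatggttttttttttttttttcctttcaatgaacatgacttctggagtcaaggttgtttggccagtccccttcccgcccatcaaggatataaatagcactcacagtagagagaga
Nr1i3: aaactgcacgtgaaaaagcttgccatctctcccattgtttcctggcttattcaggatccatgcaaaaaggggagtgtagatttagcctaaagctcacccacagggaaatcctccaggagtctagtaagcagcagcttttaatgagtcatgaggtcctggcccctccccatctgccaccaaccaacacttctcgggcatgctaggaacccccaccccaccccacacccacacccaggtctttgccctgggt
Rxra: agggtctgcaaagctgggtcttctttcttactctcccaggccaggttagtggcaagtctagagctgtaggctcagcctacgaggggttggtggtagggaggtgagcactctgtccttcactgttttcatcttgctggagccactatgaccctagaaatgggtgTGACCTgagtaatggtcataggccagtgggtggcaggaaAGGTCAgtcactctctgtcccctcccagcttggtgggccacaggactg
Nr4a2: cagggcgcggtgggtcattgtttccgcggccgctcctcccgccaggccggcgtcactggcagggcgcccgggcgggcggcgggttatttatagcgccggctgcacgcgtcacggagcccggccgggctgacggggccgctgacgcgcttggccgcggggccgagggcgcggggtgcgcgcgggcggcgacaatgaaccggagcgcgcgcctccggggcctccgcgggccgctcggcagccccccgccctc
Nr5a2: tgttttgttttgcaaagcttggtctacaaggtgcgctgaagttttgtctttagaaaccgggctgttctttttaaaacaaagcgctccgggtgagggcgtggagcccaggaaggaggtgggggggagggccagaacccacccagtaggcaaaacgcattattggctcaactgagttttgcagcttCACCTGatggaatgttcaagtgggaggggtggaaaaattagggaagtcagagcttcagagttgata
Pparg: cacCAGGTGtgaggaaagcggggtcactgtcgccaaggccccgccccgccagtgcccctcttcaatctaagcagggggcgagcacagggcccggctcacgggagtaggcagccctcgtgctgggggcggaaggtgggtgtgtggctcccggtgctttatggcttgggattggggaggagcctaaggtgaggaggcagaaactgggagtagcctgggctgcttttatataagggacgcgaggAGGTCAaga

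The Nr0b2 window opened with CAGGTG, so that its first base lay 250 bases before the start. The Pparg window held CAGGTG from base 247 before the start and AGGTCA from base 9, and the Nr5a2 window held CACCTG from base 66. The other Nr5a2 window held AGGTCA and no E-box, and of the other Pparg windows one held AGGTCA and the other neither element. Rxra had a pair of half-sites, TGACCT from base 87 and AGGTCA from base 48, and no E-box, and its other window held neither. Neither element stood in the Nr1i3 or Nr4a2 window, which says only that these letters are not in those 250 bases. Over the family, the E-box was in 14 of 64 windows (21.9%) and in 17.2% of all 32851 windows in the table. The half-site was in 11 of 64 windows (17.2%) and in 14% of all windows. These matches describe letters and not binding.

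At the level of the whole family, no receptor passed the threshold. In limma, 0 of 45 had an adjusted p under 0.05, where 0.203% of all genes did, and the smallest adjusted p among members was 0.220. At an unadjusted p under 0.05 there were 3 members (6.67%), with Nr1i3 and Rxra higher and Nr4a2 lower in HKO, where 11.9% of all genes reached that p. The receptors' share was thus not above that of genes at large. The median change over the 45 was 0.04 on the log2 scale, beside -0.01 over all genes, with 25 members higher and 20 lower in mean. The median size of change, without sign, was 0.12 for the receptors and 0.12 for all genes.

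The 2 groups did not overlap in 8 members (17.8%; 18.2% of all genes). In 7 of them every HKO array was above every Con array (15.6%; 8.05% of all genes): Nr1i3, Rxra, Nr1h4, Nr5a2, Rora, Esrra and Esr2. In 1 member, Nr4a2, every HKO array was below every Con array (2.22%; 10.1% of all genes). The first count was 13 without Con3, 11 without HKO2 and 11 without HKO3, and 4 after a second quantile normalization. The count below was 3 without Con1, 3 without HKO1, 7 without HKO3 and 0 after the second normalization. Groups of fewer arrays separate more easily, which these counts without 1 array carry in them.

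**Figure D1:**
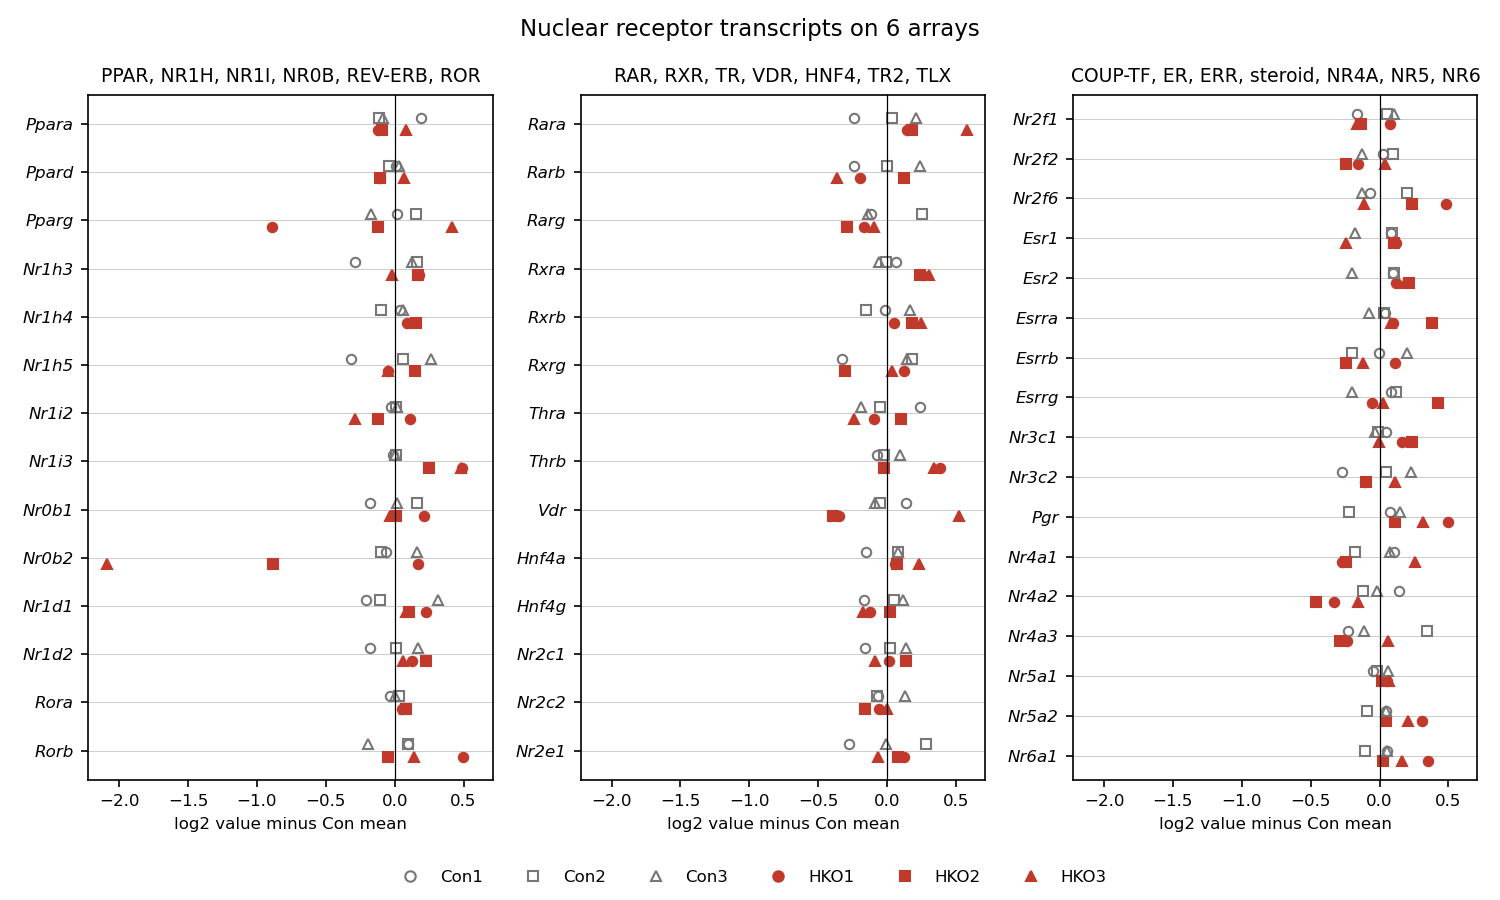
Log2 array value of each of the 45 measured receptors minus the mean of its Con arrays (horizontal axis, log2 units), with 3 Con arrays as open grey marks and 3 HKO arrays as filled red marks. Most marks lie within 0.5 of the Con mean; the HKO arrays of Nr0b2 (5.51 to 7.77 before the Con mean was taken off) and Pparg (6.03 to 7.34) spread over more than 1 log2 unit.

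The measurements bounded most changes closely. The 95% interval of the change lay within ±0.5 log2 units (1.41-fold) for 33 of 45 members, 26 of them above the array median. It excluded 0 for 3 members, Nr1i3, Rxra and Nr4a2, before adjustment over all genes. The half-width of the intervals had a median of 0.29 and ran from 0.21 to 1.08. Data were also simulated with the spread of these arrays, shuffled over genes. There limma called 13.1% of genes set to a change of 0.5, 69.7% at 1 and 94.5% at 2 (adjusted p under 0.05). In the simulation a change near 0.5 thus mostly did not pass that threshold. These rates are for genes at large and not for the receptors. Nr0b2 was the 1 member whose mean change was over 0.5 in size, and the other 44 lay between -0.32 and 0.41.

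**Figure D2:**
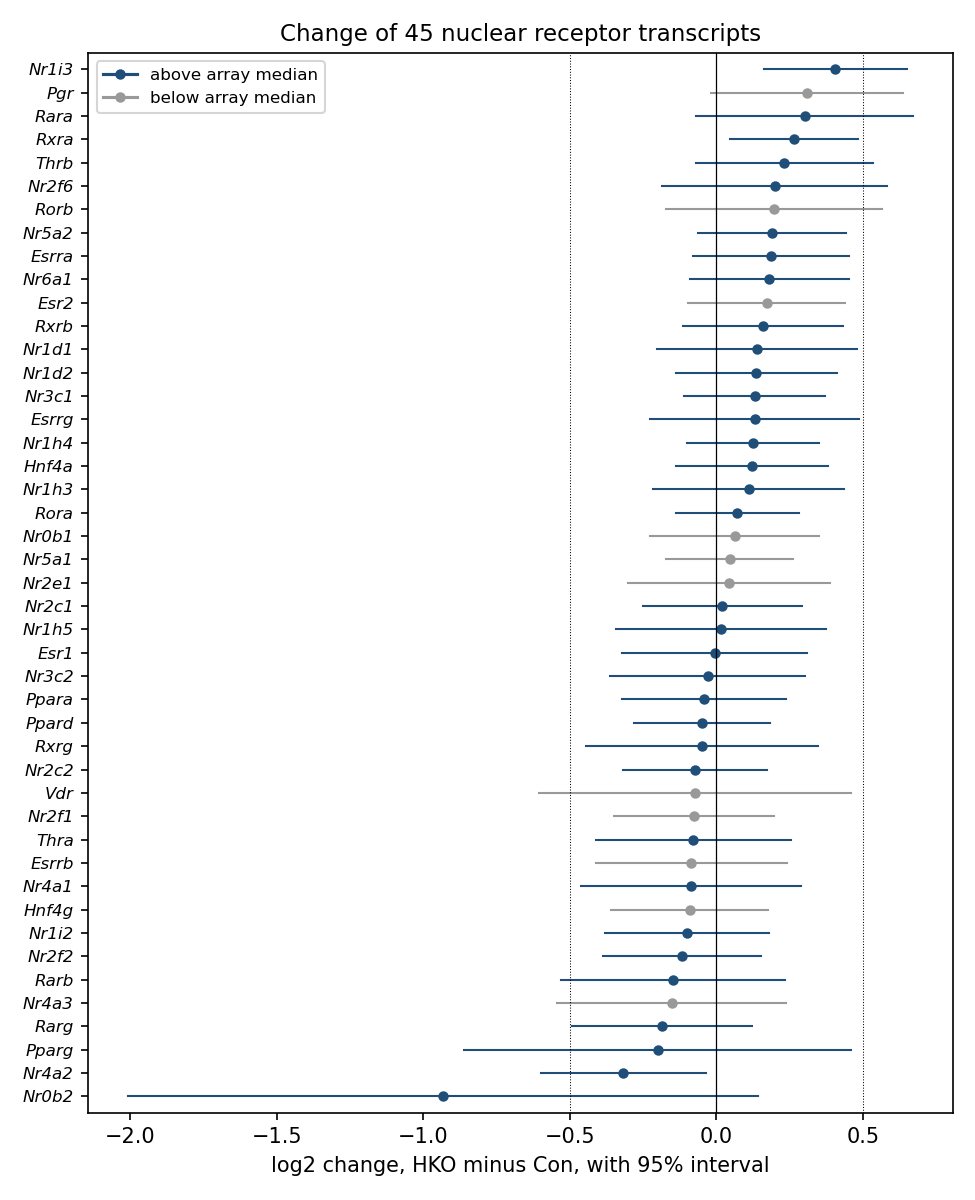
Log2 change (HKO minus Con, horizontal axis) of the 45 receptors with the 95% interval from limma, ordered by change; blue for members above the array median, grey for those below, dotted lines at -0.5 and 0.5. The intervals of Nr1i3, Rxra and Nr4a2 exclude 0 before adjustment, and those of Nr0b2 and Pparg are wide.

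Of the 45 members, 34 had a mean log2 value above the median over genes (3.94) and 11 below it. The 11 were Nr0b1, Rorb, Vdr, Hnf4g, Nr2e1, Nr2f1, Esr2, Esrrb, Pgr, Nr4a3 and Nr5a1. Values this low can be near background, where changes are compressed. The members nearest the limit were Rarg (3.95), Nr6a1 (3.97) and Rxrg (3.99) just above, and Nr4a3 (3.57), Nr2f1 (3.56) and Esr2 (3.41) just below. The 11 dim members had a median change of 0.04 and the other 34 one of 0.05.

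The xenobiotic sensors Nr1i3 (CAR) and Nr1i2 (PXR) induce enzymes that break down drugs and steroids. Nr1i3 had the lowest p-value in the family. Its log2 values were 9.10, 9.13 and 9.12 in Con and 9.61, 9.36 and 9.60 in HKO. All 3 HKO arrays were above all Con arrays, and the Con arrays spanned 0.02. The change was 0.41 (95% interval 0.16 to 0.65), 1.33-fold, with adjusted p = 0.220 in limma. It was the 1 receptor that an alternative carried past the threshold: with a variance trend in limma its adjusted p was 0.0424, within a range of 0.0424 to 0.462 over 16 alternatives.

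Nr1i2 stood at 7.78, 7.81 and 7.82 in Con and 7.91, 7.68 and 7.51 in HKO. The HKO arrays lay on both sides of the Con arrays, and the change was -0.10 (95% interval -0.38 to 0.18). Thus the interval for Nr1i2 reached down to -0.38, while that for Nr1i3 began at 0.16; the difference between both receptors was not tested.

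Of 20 measured PXR and CAR target genes, 2 rose, 0 fell and 18 did not pass, where 0.0902% of all genes rose (limma, adjusted p under 0.05). At an unadjusted p under 0.05, 6 were higher and 2 lower (5.31% and 6.56% of all genes), with a median change of -0.05. Both genes that rose are cytochrome P450s of the 2C family, whose close copies can share probes. Cyp2c54 stood at 6.91, 6.79 and 7.89 in Con and 9.97, 9.71 and 9.85 in HKO, a change of 2.65 (adjusted p = 0.0145). Cyp2c50 stood at 8.59, 8.55 and 8.62 in Con and 9.57, 9.50 and 9.59 in HKO, a change of 0.96 (adjusted p = 0.0145). Both calls were lost without Con1 (adjusted p = 0.0758 each), without Con2 (0.0729 and 0.0927), without HKO2 (0.0555 each) and without HKO3 (0.0713 and 0.0547), and Cyp2c54 also without HKO1 (0.0665). With the replicate number as a block they were lost as well (Cyp2c54 0.0514, Cyp2c50 0.0592). Cyp2b10, the classical CAR target, was below the array median at -0.58, with overlapping groups (adjusted p = 0.591). Cyp3a11, the classical PXR target, was at -0.55 (adjusted p = 0.294). Both were singled out for that role.

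The retinoid X receptors are the shared partners of PPARs, LXR, FXR, PXR, CAR and the retinoic acid, thyroid hormone and vitamin D receptors. Rxra, the form most studied in liver, was at 8.61, 8.53 and 8.48 in Con and 8.79, 8.78 and 8.85 in HKO. The groups did not overlap and the HKO arrays spanned 0.07. The change was 0.27 (95% interval 0.05 to 0.49), 1.20-fold, with adjusted p = 0.341 in limma. Its unadjusted p stayed under 0.05 without Con1, HKO1 or HKO2, but not without Con2, Con3 or HKO3. Rxrb differed by 0.16 and Rxrg by -0.05, both with overlapping groups.

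The PPARs are fatty acid sensors: Ppara drives fat burning in hepatocytes, and Pparg drives fat storage in adipocytes and in fatty liver. Ppara was at 8.45, 8.15 and 8.18 in Con and 8.14, 8.17 and 8.34 in HKO. The groups overlapped, with a change of -0.04 (95% interval -0.32 to 0.24). Pparg was at 6.94, 7.08 and 6.75 in Con and 6.03, 6.80 and 7.34 in HKO. Here HKO1 lay below and HKO3 above all Con arrays, and the HKO range of 1.31 was the second widest in the family. The change was -0.20 (95% interval -0.86 to 0.46); it was 0.15 without HKO1 and -0.51 without HKO3. Ppard, the broadly expressed form, differed by -0.05.

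**Figure D3:**
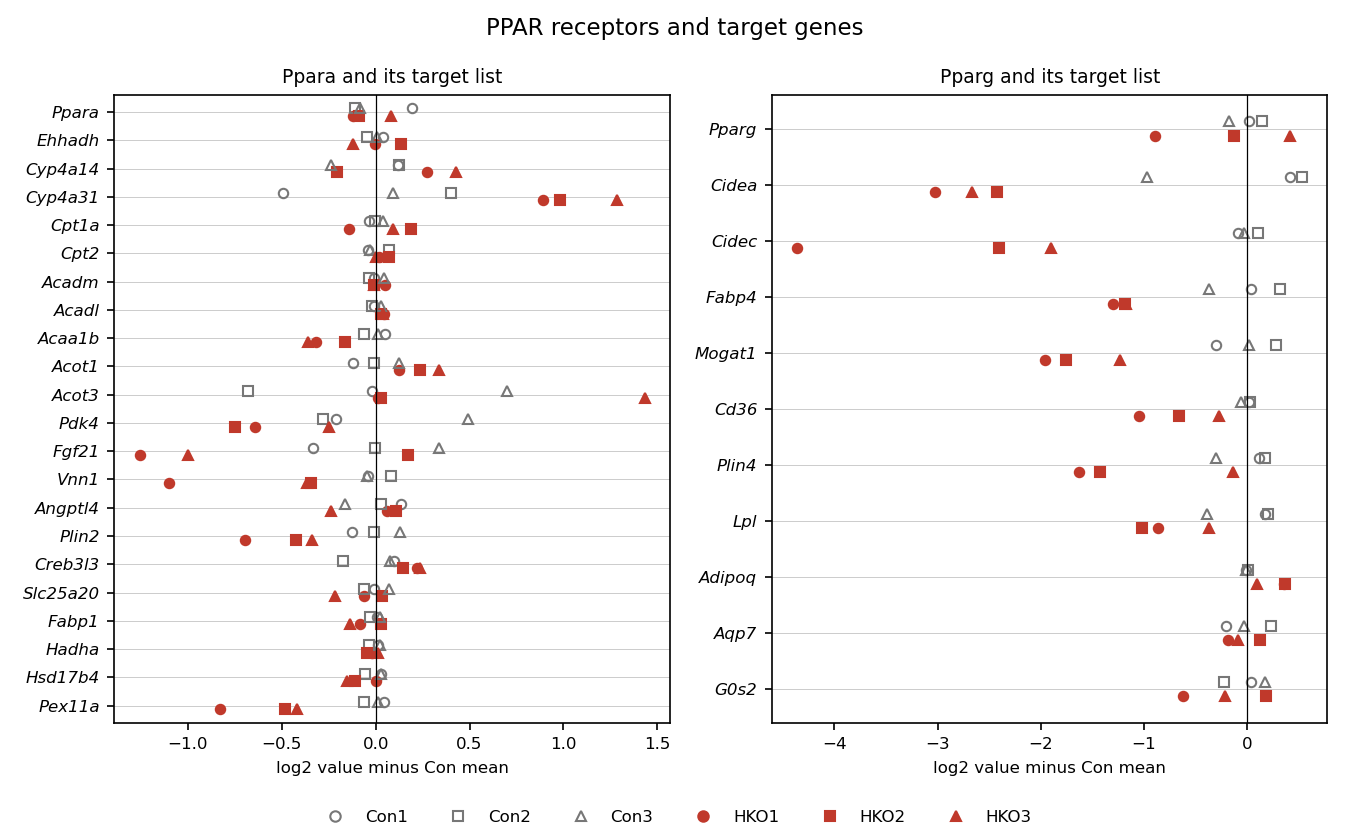
Log2 array value minus the Con mean (horizontal axis) for Ppara with 21 target genes and Pparg with 10 target genes; open grey marks are Con arrays and filled red marks HKO arrays. The HKO arrays of Pparg lie on both sides of 0, while those of Cidea, Cidec, Fabp4, Mogat1 and Cd36 lie below every Con array.

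Of 21 measured PPARA targets, 0 passed in either direction, with 1 higher and 5 lower at an unadjusted p under 0.05 (5.31% and 6.56% of all genes) and a median change of -0.02. The 3 targets with the lowest p were Cyp4a31, a fatty acid hydroxylase (1.05, adjusted p = 0.136), Pex11a, a peroxisome division factor (-0.58, adjusted p = 0.158), and Plin2, a lipid droplet coat protein (-0.49, adjusted p = 0.223). Fgf21, a liver hormone, was at 5.69, 6.02 and 6.36 in Con and 4.77, 6.19 and 5.03 in HKO.

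Of 10 measured PPARG targets, 3 fell, 0 rose and 7 did not pass, beside 0.113% of all genes that fell, and the list's median change was -0.90. Mogat1, which makes diacylglycerol, was at 5.05, 5.63 and 5.37 in Con and 3.40, 3.60 and 4.12 in HKO (limma, adjusted p = 0.0344). Cidea, a lipid droplet protein, was at 6.71, 6.82 and 5.32 in Con and 3.26, 3.85 and 3.61 in HKO (adjusted p = 0.0430). Fabp4, a fatty acid binding protein, was at 7.33, 7.61 and 6.93 in Con and 5.99, 6.11 and 6.12 in HKO (adjusted p = 0.0444). All 3 were lower in every HKO array than in any Con array, and the HKO means of Mogat1 (3.71) and Cidea (3.58) lay below the array median, where changes are compressed. Earlier results of these data had already shown these genes to fall, and Cyp2c54, Cyp2c50 and Usp2 to rise, so counts that hold them are not independent evidence of a list's direction. The calls were lost for Mogat1 without any array but HKO3 (adjusted p from 0.0758 to 0.157), for Cidea without any array but Con3 (0.0959 to 0.164) and for Fabp4 without Con1, Con2, HKO1, HKO2 or HKO3 (0.124 to 0.174). With all 6 arrays they were lost with the replicate number as a block (Mogat1 0.0514, Cidea 0.0720, Fabp4 0.1004) and, for Cidea and Fabp4, after a second quantile normalization (0.05004 and 0.0608).

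Some PPARG targets also mark adipocytes or macrophages. Of 6 measured adipocyte markers 2 fell, Cidea and Fabp4, which are PPARG targets as well (0.113% of all genes fell). In mean 3 of the 6 were higher and 3 lower, with a median change of 0.07. The list's summed level was 7.63 to 8.43 in Con and 6.78 to 6.95 in HKO, and Fabp4 and Cidea were its brightest members. The other 4, Adipoq, Lep, Retn and Plin1, were all below the array median in mean over the 6 arrays, with Adipoq at 2.94 to 2.97 in Con and 3.06 to 3.33 in HKO. The recruited macrophage list had 6 of 6 measured members lower in mean, with a summed level of 7.55 to 7.70 in Con and 7.02 to 7.27 in HKO. On that list 0 were higher and 4 lower at an unadjusted p under 0.05 (5.31% and 6.56% of all genes). Itgax, the integrin alpha chain also called CD11c, fell from a mean of 4.44 to 3.42 (limma, adjusted p = 0.0280), with its HKO values below the array median. Markers of Kupffer cells, the resident macrophages, were mixed, with 3 higher and 3 lower in mean. None had an unadjusted p under 0.05, and their summed level was 9.50 to 9.84 in Con and 9.50 to 9.72 in HKO. The part of adipocytes and macrophages in the PPARG targets was not tested.

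Nr1h3 (LXR alpha) senses oxysterols and switches on cholesterol export and fat synthesis. It was at 6.88, 7.32 and 7.29 in Con and 7.34, 7.34 and 7.15 in HKO. The groups overlapped, with a change of 0.11 (95% interval -0.22 to 0.44), which was -0.03 without Con1. Of 13 measured LXR targets 0 passed, with a median of -0.12. At an unadjusted p under 0.05, 2 were higher and 4 lower (5.31% and 6.56% of all genes). The lowest p on this list was that of Cyp7a1, a bile acid synthesis enzyme, at 1.39 (adjusted p = 0.0649). Fasn, the fatty acid synthase, was at -0.84 (adjusted p = 0.0763) and Srebf1, the regulator of lipogenesis, at -0.64 (adjusted p = 0.254). The sterol exporters Abca1, Abcg1, Abcg5 and Abcg8 were at -0.12, -0.36, -0.16 and 0.35.

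Bile acids bind Nr1h4 (FXR), which switches on Nr0b2 (SHP), a receptor with no DNA-binding domain that represses bile acid synthesis by acting on Nr5a2 (LRH-1) and Hnf4a. Nr1h4 was at 8.56, 8.42 and 8.57 in Con and 8.61, 8.67 and 8.63 in HKO. The groups were separated by 0.04, and the change was 0.12 (95% interval -0.10 to 0.35; adjusted p = 0.678). Nr5a2 was at 8.19, 8.05 and 8.18 in Con and 8.45, 8.19 and 8.34 in HKO. It too did not overlap, but by less than 0.01, and the change was 0.19 (95% interval -0.06 to 0.44; adjusted p = 0.558). The FXR relative Nr1h5 differed by 0.02.

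Nr0b2 varied more among HKO mice than any other receptor. It was at 7.53, 7.50 and 7.76 in Con and 7.77, 6.72 and 5.51 in HKO. HKO1 matched the highest Con array, HKO2 was lower and HKO3 lower still, so that the HKO range of 2.26 stood against a Con range of 0.26. The mean change was -0.93, 1.91-fold, with a 95% interval from -2.01 to 0.14 (limma, adjusted p = 0.490). It was -1.48 without HKO1 (adjusted p = 0.204) and -0.36 without HKO3 (adjusted p = 0.724). The other receptor of this class, Nr0b1 (DAX1), a factor of steroid-producing tissues, was below the array median and differed by 0.06.

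A list of 5 genes repressed through FXR and SHP had 5 of 5 measured. All 5 were higher in mean in HKO, 0 passed, and 3 had an unadjusted p under 0.05 (5.31% of all genes were higher at that p), with a median change of 0.36. Cyp7a1, the rate-limiting enzyme of bile acid synthesis, was at 8.20, 8.10 and 7.32 in Con and 9.17, 9.29 and 9.33 in HKO. Every HKO array was above every Con array, and the change was 1.39 (adjusted p = 0.0649; 0.0297 without Con3, within 0.00835 to 0.200 over 16 alternatives). Cyp7b1, of the alternative pathway, was at 7.61, 7.43 and 7.78 in Con and 8.41, 8.49 and 8.15 in HKO (0.74, adjusted p = 0.104). Slc10a1, the bile acid uptake carrier NTCP, was at 10.58, 10.53 and 10.68 in Con and 10.98, 10.96 and 10.92 in HKO (0.36, adjusted p = 0.228).

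The HKO arrays spanned 0.16 for Cyp7a1, 0.34 for Cyp7b1 and 0.06 for Slc10a1, whereas Nr0b2 ran from 5.51 to 7.77 in the same mice. The part of Nr0b2 in the levels of these genes was not tested.

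**Figure D4:**
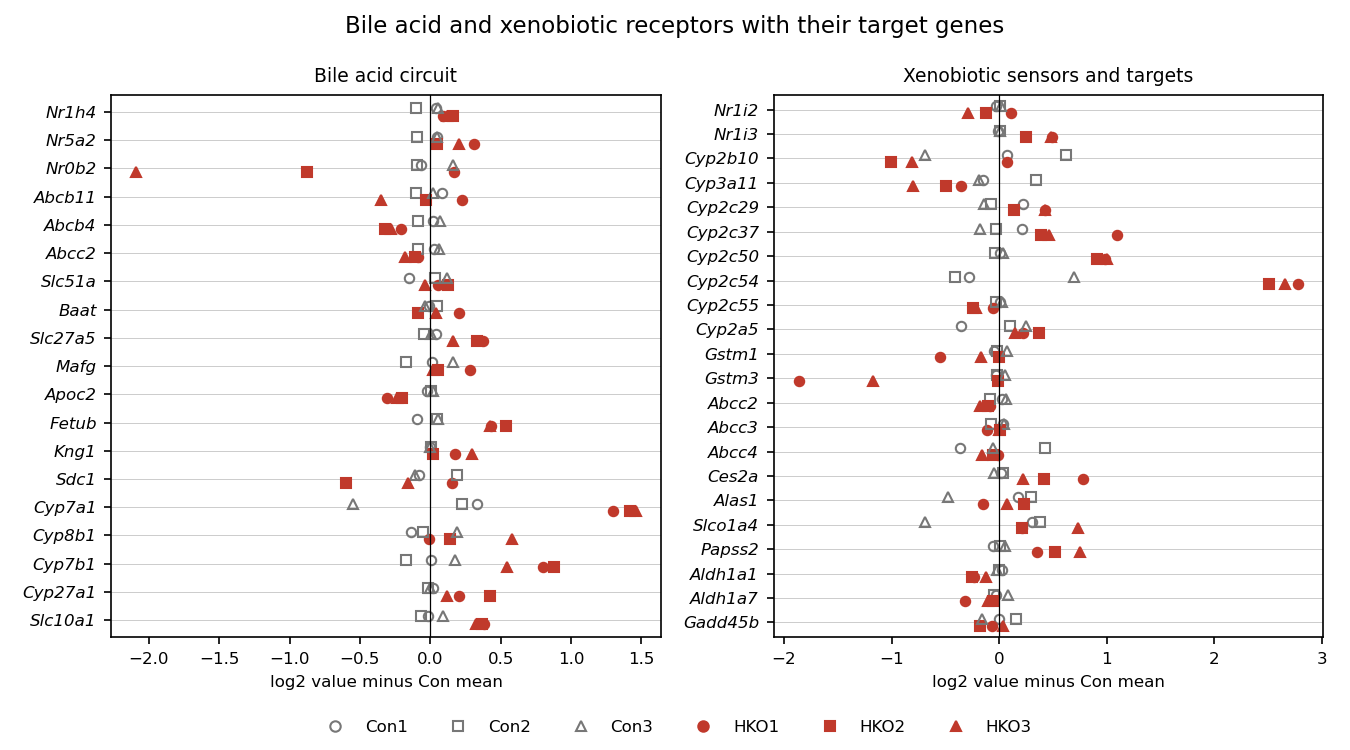
Log2 array value minus the Con mean (horizontal axis) for the bile acid receptors with FXR targets and the genes repressed through FXR and SHP, and for the xenobiotic sensors with PXR and CAR targets; open grey marks are Con arrays and filled red marks HKO arrays. Nr0b2 is spread among HKO arrays, Cyp7a1 is high on all 3, and Cyp2c50 and Cyp2c54 are high on all 3.

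Of 12 measured FXR-activated genes, Nr0b2 included, 0 passed, with a median of 0.00. There were 2 higher and 2 lower at an unadjusted p under 0.05 (5.31% and 6.56% of all genes). Fetub, a secreted liver protein, was at 0.46 (adjusted p = 0.148), Slc27a5, a bile acid CoA ligase, at 0.29, and Abcb4, the phospholipid exporter of bile, at -0.27. Abcb11, the bile salt export pump, was at -0.05. Of 6 measured LRH-1 targets 0 passed, with a median of 0.27. Here 2 were higher and 0 lower at an unadjusted p under 0.05 (5.31% and 6.56% of all genes). The HDL receptor Scarb1 was at 0.30 (limma, adjusted p = 0.298), and Abcg5, Abcg8 and Nr0b2 are on this list too.

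Nr1d1 and Nr1d2 (REV-ERB alpha and beta) repress, and Rora activates, the same sites in clock genes. Nr1d1 was at 8.49, 8.59 and 9.01 in Con and 8.92, 8.80 and 8.78 in HKO. The Con arrays spanned 0.53 and the HKO arrays 0.14, with a change of 0.14 (95% interval -0.20 to 0.48). The groups overlapped through Con3 alone, and the change was 0.30 without it (limma, adjusted p = 0.421). Nr1d2 differed by 0.14, also with overlap. Rora differed by 0.07 with no overlap between groups that were 0.02 apart, and Rorb, below the array median, differed by 0.20.

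Nr1d1 and Nr1d2 are themselves switched on through E-boxes by the clock, and the other clock genes of that kind were read beside them. Of 10 measured, 1 rose, 0 fell and 9 did not pass, where 0.0902% of all genes rose. At an unadjusted p under 0.05, 4 were higher and 0 lower (5.31% and 6.56% of all genes), with a median of 0.25, and 10 of 10 were higher in mean. Usp2, a deubiquitinating enzyme, was at 6.93, 6.89 and 7.0 in Con and 7.57, 7.61 and 7.72 in HKO. The groups were 0.57 apart and the change was 0.69 (limma, adjusted p = 0.0483). The call was lost without any 1 of the 6 arrays (adjusted p from 0.0965 to 0.207), and with all arrays under robust variance (0.0518), with every probe set on its own (0.0519) and once replicate number was blocked (0.121). Dbp, a clock output factor, was at 8.28, 8.61 and 8.87 in Con and 8.78, 9.40 and 9.49 in HKO (0.63, adjusted p = 0.319), chosen as a well known output gene.

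Of 9 measured targets that REV-ERB represses or ROR activates, 0 passed, with a median of -0.07. There were 2 higher and 1 lower at an unadjusted p under 0.05 (5.31% and 6.56% of all genes). Cyp7b1 is on this list as well. The vasopressin receptor Avpr1a was at 0.84 (adjusted p = 0.293) and the clock activator Npas2 at -0.44 (adjusted p = 0.380). Arntl, the partner of Clock, was at 5.55, 5.88 and 5.13 in Con and 5.52, 5.07 and 4.94 in HKO. Clock transcripts change over the day, and the part of collection time was not tested.

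**Figure D5:**
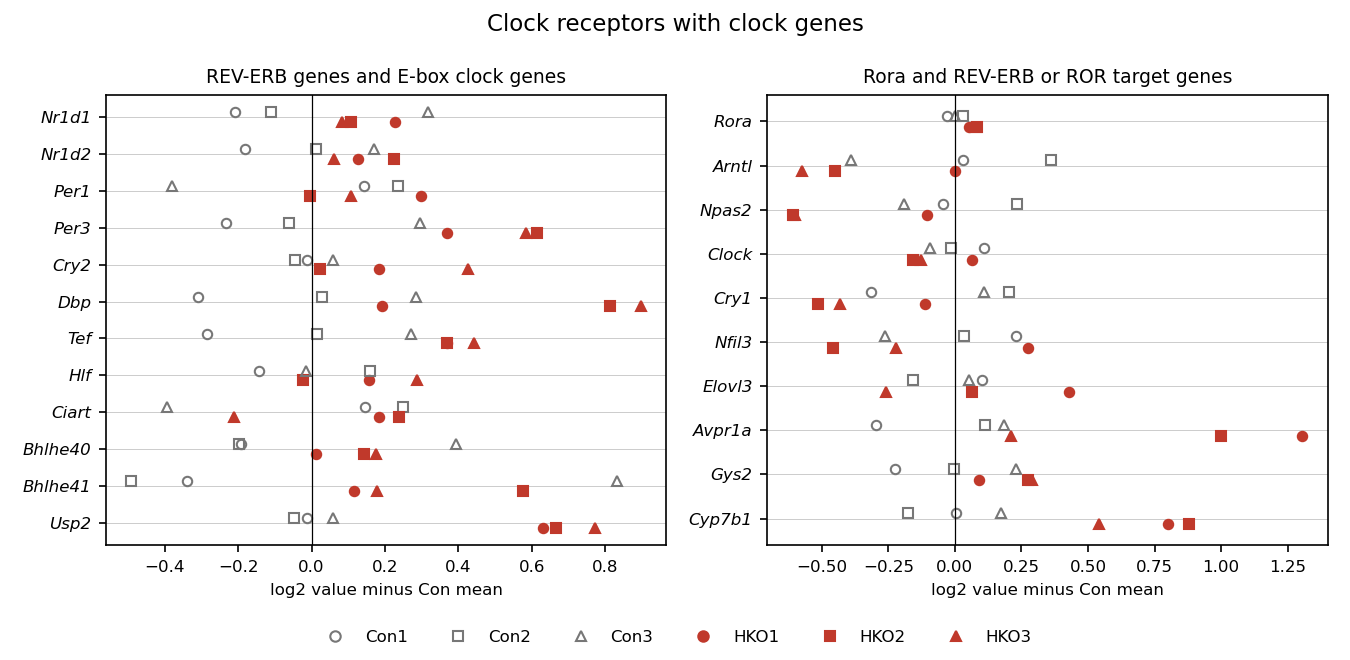
Log2 array value minus the Con mean (horizontal axis) for the REV-ERB genes with 10 E-box clock genes, and for Rora with 9 REV-ERB or ROR targets; open grey marks are Con arrays and filled red marks HKO arrays. Among the E-box genes Usp2, Per3 and Tef are separated in full, while Nr1d1 and Nr1d2 are not. The HKO values of Arntl, Npas2, Cry1, Clock, Nfil3 and Elovl3 reach below the Con values.

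Among the retinoic acid receptors, which bind the vitamin A product retinoic acid, Rara had the largest change in size. It was at 5.67, 5.94 and 6.12 in Con and 6.05, 6.09 and 6.49 in HKO. The groups overlapped, with a change of 0.30 (95% interval -0.07 to 0.67; adjusted p = 0.520). Rarg, at the limit of the array median, was at 3.92, 4.29 and 3.90 in Con and 3.88, 3.75 and 3.94 in HKO, a change of -0.18, and Rarb differed by -0.15.

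Of 8 measured retinoic acid targets 0 passed, with a median of 0.11. At an unadjusted p under 0.05, 2 were higher and 1 lower (5.31% and 6.56% of all genes). Cyp26a1 and Cyp26b1 both break down retinoic acid and are switched on by it. Cyp26b1 was at 4.31, 4.31 and 4.53 in Con and 4.89, 5.05 and 4.76 in HKO (0.52, adjusted p = 0.168). Cyp26a1 was at 3.80, 3.85 and 3.75 in Con, below the array median, and 5.17, 4.35 and 3.91 in HKO (0.68, adjusted p = 0.394). Tgm2, a transglutaminase, was at -0.36 (adjusted p = 0.333). Hepatic stellate cells store the liver's vitamin A. Of their 8 measured markers 6 were lower and 2 higher in mean, and 0 passed. The unadjusted p was under 0.05 for 0 higher and 3 lower (5.31% and 6.56% of all genes). Those 3 were Pdgfrb (-0.73), Colec11 (-0.47) and Dcn (-0.34), while the 2 higher in mean were Des (0.05) and Lrat (0.03). Lrat is on the retinoic acid list too. The summed level of the stellate markers was 10.65 to 10.8 in Con and 10.4 to 10.5 in HKO, and its part in the retinoic acid genes was not tested.

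Thrb, the main thyroid hormone receptor of liver, was at 7.15, 7.21 and 7.32 in Con and 7.61, 7.20 and 7.57 in HKO. HKO2 lay among the Con arrays and the other HKO arrays above them, with a change of 0.23 (95% interval -0.07 to 0.54; adjusted p = 0.547). Thra differed by -0.08. Of 8 measured thyroid hormone targets 0 passed, with a median of -0.11. There were 1 higher and 3 lower at an unadjusted p under 0.05 (5.31% and 6.56% of all genes). Gpd2, a mitochondrial glycerol phosphate dehydrogenase, was at 7.60, 7.54 and 7.60 in Con and 7.02, 7.11 and 7.05 in HKO (-0.52, adjusted p = 0.0992). Me1, the malic enzyme, was at -0.50 (adjusted p = 0.205) and Klf9, a transcription factor, at 0.40 (adjusted p = 0.210). The vitamin D receptor Vdr was below the array median at -0.07, with HKO3 at 3.38 and the other HKO arrays at 2.51 and 2.46.

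Hnf4a keeps up the hepatocyte program and is active without a switching hormone. It was at 8.81, 9.04 and 9.04 in Con and 9.02, 9.03 and 9.20 in HKO. The groups overlapped, with a change of 0.12 (95% interval -0.14 to 0.38; adjusted p = 0.733). Hnf4g, the intestinal relative, was below the array median and differed by -0.09. Of 16 measured HNF4A targets 0 passed, with a median of -0.02. Here 1 was higher and 3 lower at an unadjusted p under 0.05 (5.31% and 6.56% of all genes). Apoa4, an apolipoprotein, was at -0.92 (adjusted p = 0.192), the clotting factor F11 at 0.60 (adjusted p = 0.303) and Apoc2, an activator of lipoprotein lipase, at -0.25 (adjusted p = 0.363).

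None of the orphan receptors of this branch passed the threshold. Nr2c1 (TR2) and Nr2c2 (TR4) differed by 0.02 and -0.07, and Nr2e1 (TLX), a neural factor, was below the array median at 0.04. Among the COUP-TFs, Nr2f1 was below the array median at -0.08 and Nr2f2 differed by -0.12. Nr2f6 differed by 0.20 (95% interval -0.18 to 0.58), and all 3 had overlapping groups.

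Esr1, the estrogen receptor of liver, was the receptor with the smallest change. It was at 6.28, 6.29 and 6.02 in Con and 6.31, 6.30 and 5.95 in HKO, with 1 lower array in each group. The change was -0.0054 (95% interval -0.32 to 0.31). Esr2, below the array median, was at 3.42, 3.42 and 3.12 in Con and 3.44, 3.53 and 3.50 in HKO, groups 0.01 apart. Esrra, an orphan receptor of energy metabolism, was at 5.39, 5.38 and 5.27 in Con and 5.44, 5.73 and 5.43 in HKO. It did not overlap, with a change of 0.19 (95% interval -0.08 to 0.45; adjusted p = 0.588). Esrrg differed by 0.13, and Esrrb, below the array median, by -0.08.

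Of 9 measured ERR targets 0 passed, with a median of -0.07. At an unadjusted p under 0.05, 0 were higher and 2 lower (5.31% and 6.56% of all genes). Cs, the citrate synthase, was at -0.25, Pdk4, which inhibits pyruvate oxidation, at -0.55, and Cycs, cytochrome c, at -0.20 (adjusted p = 0.394, 0.395 and 0.471).

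Nr3c1, the glucocorticoid receptor, was at 7.43, 7.37 and 7.35 in Con and 7.54, 7.62 and 7.38 in HKO. HKO3 lay among the Con arrays, and the change was 0.13 (95% interval -0.11 to 0.37; adjusted p = 0.680). Of 17 measured glucocorticoid targets 0 passed, with a median of -0.14. There were 1 higher and 4 lower at an unadjusted p under 0.05 (5.31% and 6.56% of all genes). Klf9 was the higher one. Cdkn1a, a cell cycle inhibitor, was at 8.05, 8.24 and 7.11 in Con and 6.92, 7.10 and 7.11 in HKO (-0.75). Its adjusted p in limma was 0.333, and 0.0378 without Con3, within 0.0378 to 0.606 on leaving out 1 array. G6pc, which releases glucose, was at -0.55 (adjusted p = 0.395). Con3 was the lowest Con array for every measured gene of this list, as for Fkbp5 at 7.06, 6.88 and 6.00 in Con and 6.91, 7.02 and 6.29 in HKO.

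Nr3c2, the mineralocorticoid receptor, differed by -0.03, and its second, dimmer probe set by 0.15. Pgr, the progesterone receptor, was at 2.98, 2.69 and 3.05 in Con and 3.41, 3.02 and 3.22 in HKO. It had the fourth lowest p-value (change 0.31, adjusted p = 0.448), but all of its values lay below the array median.

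Receptors of the NR4A branch are early-response genes that act without a ligand. Nr4a2 was the 1 receptor lower in every HKO array. It was at 5.04, 4.78 and 4.89 in Con and 4.57, 4.44 and 4.75 in HKO. The groups were 0.03 apart, and the change was -0.32 (95% interval -0.60 to -0.04), 1.25-fold, with adjusted p = 0.373 in limma. Its unadjusted p stayed under 0.05 without Con2 or HKO3, but not without Con1, Con3, HKO1 or HKO2. After a second quantile normalization it was not under 0.05 either. Nr4a1 differed by -0.09 and Nr4a3, below the array median, by -0.15, both with overlapping groups, so all 3 were lower in mean. Nr6a1, a factor of germ cells, was at 3.94, 3.77 and 3.93 in Con and 4.24, 3.91 and 4.04 in HKO (0.18), and Nr5a1, a factor of steroid-producing tissues, was below the array median at 0.05.

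Coregulators carry the receptors' signal to the transcription machinery. Of 9 measured coactivators 0 passed; 8 were higher in mean, 3 at an unadjusted p under 0.05 (5.31% of all genes), and 5 did not overlap with HKO above Con (8.05% of all genes), with a median of 0.19. Ncoa3, a steroid receptor coactivator, was at 6.85, 6.90 and 6.86 in Con and 7.05, 7.23 and 7.22 in HKO (0.30, adjusted p = 0.311). Ppargc1a, the coactivator of fasting metabolism, was at 6.27, 6.45 and 6.21 in Con and 6.68, 6.48 and 6.81 in HKO (0.34, adjusted p = 0.342), and Ppargc1b was at 0.33 (adjusted p = 0.370). The groups of these 3 did not overlap.

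Of 7 measured corepressors 0 passed, with a median of 0.01. Here 0 were higher and 1 lower at an unadjusted p under 0.05 (5.31% and 6.56% of all genes). Hdac3, the deacetylase of the NCoR complex, was at 7.45, 7.46 and 7.52 in Con and 7.33, 7.20 and 7.14 in HKO (-0.25, adjusted p = 0.389). Sin3a, a scaffold protein, was at 0.18 and Lcor, a ligand-dependent corepressor, at 0.10 (adjusted p = 0.536 and 0.780).

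Of 14 measured genes that supply or remove receptor ligands 0 passed, with 4 higher and 0 lower at an unadjusted p under 0.05 (5.31% and 6.56% of all genes) and a median of 0.16. The 3 with the lowest p, Cyp26b1, Slc10a1 and Cyp26a1, were described with their receptors. They act on retinoic acid and bile acids.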

How the data were processed

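Per the submitters' processing notes, the authors ran RMA in R 3.3.0, and the deposited table gives the resulting log2 values. Per the labels' protocols, 400 ng of TRIzol-extracted RNA was labelled for each array. RMA makes the arrays' distributions alike, so a change is relative to all genes. Changes of dim genes are compressed. Which genome build the array design used is not given. With 6 arrays and no read depth, the number of arrays sets the precision.

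Of 41345 probe sets, GEO's platform annotation paired 23521 with 1 gene, 1814 with more and 16010 with none. By Entrez identifier 23328 matched RefSeq (GRCm38.p6), which changed 0 symbols. Probe sets with several genes were left out, 1 each for Ppard and Nr3c2. All 22180 genes entered a two-sided fit by group alone (lmFit, then eBayes, of limma 3.58.1 under R 4.3.3), with Benjamini-Hochberg adjustment over all of them and no filter on low values. The threshold was adjusted p 0.05, and intervals are 95%. The script was tested on simulated data (10 draws over 22180 genes; 4.53% of calls were false). Summed levels are log2 of the sum of a list's linear values. Python 3.11.15 was used for the other steps.

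The members and lists were chosen with earlier results of these data known. Array values were printed for the 12 receptors with the lowest p, for central liver receptors and for Snai2. From each pathway list, up to 4 genes past the threshold were named, or otherwise the 3 with the lowest p; genes outside this rule were named after their values were seen, for their textbook role. Replicate numbers were not taken as pairs: deviations of arrays with the same number correlated at 0.02 to 0.03. Alternatives changed the normalization, centring, filter, probe set choice, variance model, array weights, replicate block, threshold and floor, and left out each array. Protein sequences were not analysed here.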

Additional observations from a re-analysis of the deposited data

How the results depend on the processing

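The count of receptors past adjusted p 0.05 in limma was 0 in 15 of 16 alternative fits, those without 1 array among them, and also at a threshold of adjusted p 0.1; it was 1 (Nr1i3) with a variance trend. With the replicate number as a block, the count of all genes past the threshold went from 45 to 3 (0 higher, 3 lower). In that fit the adjusted p of Snai2 became 0.0540 at the same change of -2.43, and 4 receptors were higher at an unadjusted p under 0.05. In deviations from the group means, each HKO array correlated best with the Con array of its own number, but only at 0.02 to 0.03. Pairing by number was not tested. The gene count was 115 at adjusted p 0.1, 138 (60 higher, 78 lower) when only genes above the median level were tested, and 215 (100 higher, 115 lower) with the variance trend. After a second quantile normalization 0 receptors were lower at an unadjusted p under 0.05, and 4 were above and 0 below Con without overlap; with the variance trend 2 were lower. Leaving out 1 array gave 4 to 32 genes past the threshold (0 to 16 higher, 4 to 16 lower), 1 to 4 receptors higher and 0 to 2 lower at an unadjusted p under 0.05, 7 to 13 receptors above and 1 to 7 below without overlap, a median change of 0.0228 to 0.072, and for Snai2 a change of -2.69 to -2.15 (adjusted p from 0.0179 to 0.0927). Shares of all genes at an unadjusted p under 0.05, or without overlap, were taken in the main fit alone. The receptor counts in the other fits thus cannot be told from what all genes did there. With the 25th percentile over genes as the floor, 2 receptors lay below it. The sign turned for Esr1, at 0.0335 after the second normalization and -0.094 to 0.112 on leaving out 1 array, and, on leaving out 1 array, for Nr1h3 (-0.0318 to 0.191), Ppara (-0.106 to 0.0532) and Pparg (-0.508 to 0.146). The cause was not tested. Of 21 receptors with printed values 17 kept their sign under all 16 alternatives, as did 41 of 41 named list genes. The block ended the calls of all 6 pathway list genes past the threshold (adjusted p from 0.0514 to 0.121: Cyp2c54, Mogat1, Cyp2c50, Cidea, Fabp4 and Usp2), the second normalization those of Cidea (0.05004) and Fabp4 (0.0608), and robust variance (0.0518) and every probe set on its own (0.0519) that of Usp2. Among list genes that did not pass, Cyp7a1, Cyp7b1, Fasn and Gpd2 passed when only genes above the median level were tested and with the variance trend, Cyp4a31, Fetub, Klf9, Me1, Pex11a and Slc10a1 with the trend alone, and Cyp7a1 and Cdkn1a without Con3. The small number of arrays and values near background limit what these data show.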
